A study of Homo sapiens with 18 samples.

Results

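The 5 genes described here, RBFOX1, AUTS2, LRRC4C, ODZ2 and CSMD1, are long genes known mainly from the nervous system, examined in LNCaP cells, a line from human prostate adenocarcinoma. They are 5 of the 22336 genes in the mRNA-seq table, and 390 of the 94527 enhancers detected by WHG-STARR-seq, together with 208 of the 51909 ATAC-seq sites, had their centre inside one of the gene bodies or within 200 kb of it. The genes were selected on these same data, because each was the nearest gene of many enhancers and none of those enhancers was open. In a recount over start sites of genes with a single locus, RBFOX1 was nearest to 136 enhancers, AUTS2 to 108, LRRC4C to 79, ODZ2 to 77 and CSMD1 to 76. Of these, 130 of RBFOX1, 59 of AUTS2, 30 of LRRC4C, 50 of ODZ2 and 56 of CSMD1 were among the 390. The 390 also hold enhancers nearest to other genes. Just below the 5 genes in this recount stood PCDH7 with 74 and no open enhancer, while TMEM132B with 90 (3 open) and UQCRFS1 with 81 (5 open) ranked among them. Enhancer counts and open shares at the 5 genes are therefore descriptions and carry no test.

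In WHG-STARR-seq, random pieces of the genome are cloned behind a minimal promoter on a plasmid, and a piece that acts as an enhancer raises the amount of mRNA carrying its own sequence. The activity is measured outside the fragment's native chromatin, and a sequence can score as an enhancer although its place in the genome is closed in the same cells. Open enhancers here are those that overlap a DNase I site of LNCaP cells, and closed enhancers are the rest. Trichostatin A (TSA) inhibits histone deacetylases, enzymes whose activity is linked to compact chromatin.

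The series holds TSA-treated LNCaP cells (100 ng/ml for 24 h) and cells given the DMSO vehicle for 24 h, with 3 ATAC-seq and 3 mRNA-seq libraries of each. There were also 3 mRNA-seq libraries of untreated cells, for which no separate value was used here. For WHG-STARR-seq there were 2 output libraries, harvested 72 h after electroporation, and 1 input library, which was made from commercial human genomic DNA and not from LNCaP DNA. Cells were kept in charcoal-stripped serum, which is low in steroid hormones, after electroporation and for the TSA and vehicle treatments. The files used hold pooled values, so no value per library, no error between replicates and no test over samples can be given; intervals cover counting error only, and PCR copies are not independent molecules. The mRNA levels are averages that include TSA-treated cells. LNCaP markers were high in the mRNA-seq table (6 of 6 genes between 4.41 and 11.2 log2 CPM). Neuronal markers were mixed, with TUBB3, ENO2 and MAP2 between 6.78 and 7.003 log2 CPM and 4 of 8 below 0, among them RBFOX3 and SNAP25, and the 3 immune markers all lay below 0. The fibroblast marker COL1A1 was at 6.77 log2 CPM with COL1A2 at 0.37 and LUM at 1.87, and the glial marker MBP was at 5.75 with OLIG2 at 0.25 and GFAP at -2.21.

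RBFOX1 encodes an RNA-binding protein that regulates splicing in neurons and muscle. AUTS2 encodes a nuclear protein associated with neurodevelopment and with transcriptional regulation through Polycomb complexes. LRRC4C encodes netrin-G ligand 1, a synaptic adhesion molecule, and ODZ2 (TENM2 in current nomenclature) encodes teneurin-2, a transmembrane protein that binds latrophilins across the synapse. CSMD1 encodes a large membrane protein with CUB and Sushi domains that regulates complement.

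The sequences around the summits of the strongest enhancers are shown first, because these elements carry the highest activity at each gene. Each run is 200 bases of the plus strand of hg19, and capitals mark matches to the motifs listed further on. The strongest enhancers of CSMD1 and LRRC4C are named without sequence.
RBFOX1 enhancer 1, chr16:5381386-5381585: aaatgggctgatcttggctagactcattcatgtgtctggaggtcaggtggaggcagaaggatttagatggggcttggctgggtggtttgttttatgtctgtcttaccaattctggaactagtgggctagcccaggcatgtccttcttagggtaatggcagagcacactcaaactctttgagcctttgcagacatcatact
AUTS2 enhancer 1, chr7:70314535-70314734: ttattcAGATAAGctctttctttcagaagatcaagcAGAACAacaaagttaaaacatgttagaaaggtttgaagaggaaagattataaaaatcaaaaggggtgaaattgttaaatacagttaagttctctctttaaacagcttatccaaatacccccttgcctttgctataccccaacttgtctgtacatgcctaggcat
AUTS2 enhancer 2, chr7:70301346-70301545: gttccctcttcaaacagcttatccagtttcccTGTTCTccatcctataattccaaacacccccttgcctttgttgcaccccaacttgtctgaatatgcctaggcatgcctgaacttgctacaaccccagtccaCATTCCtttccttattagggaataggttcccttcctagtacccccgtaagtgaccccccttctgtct
ODZ2 enhancer 1, chr5:166310267-166310466: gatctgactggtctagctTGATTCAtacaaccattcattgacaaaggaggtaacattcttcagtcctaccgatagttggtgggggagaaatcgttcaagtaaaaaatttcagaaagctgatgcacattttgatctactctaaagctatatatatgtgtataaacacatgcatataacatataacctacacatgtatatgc
The RBFOX1 run held no match, the AUTS2 runs held 2 matches each, and the ODZ2 run held 1 AP-1 match.

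RBFOX1 had the most enhancers of the 315 protein-coding genes of at least 500 kb. It lies on the plus strand of chromosome 16 (chr16:5289803-7763342, 2.47 Mb, the longest of these genes) and held 115 enhancers in its body, or 46.5 per Mb (95% Poisson interval 38.4 to 55.8). CSMD1, on the minus strand of chromosome 8 (chr8:2792875-4852494, 2.06 Mb), held 77, or 37.4 per Mb (29.5 to 46.7). ODZ2 (chr5:166406034-167691162, plus strand, 1.29 Mb) held 51, or 39.7 per Mb (29.5 to 52.2). AUTS2 (chr7:69063282-70258492, plus strand, 1.20 Mb) held 41, or 34.3 per Mb (24.6 to 46.5). LRRC4C (chr11:40135753-41481323, minus strand, 1.35 Mb) held 25, or 18.6 per Mb (12.02 to 27.4). The intervals give counting error only and were not used to compare the genes.

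Per Mb, none of the 5 genes was at the top of the long genes. RBFOX1 ranked 41, ODZ2 75, CSMD1 87, AUTS2 111 and LRRC4C 232 of the 315. The other 310 long genes had a median of 27.8 enhancers per Mb (quartiles 18.0 and 39.3), and the whole genome had 33.1 per Mb of assembled bases. Across the 315 genes the density followed GC content, with Spearman's rho of 0.86, and had little relation to length (rho -0.17) or to the number of ATAC-seq sites per Mb (rho 0.018). These are descriptions over genes, which share the same pooled libraries. RBFOX1 was highest and LRRC4C lowest of the 5 in both density and GC content, with a GC content of 42.4% in RBFOX1, 41.1% in AUTS2, 39.8% in ODZ2, 38.5% in CSMD1 and 36.7% in LRRC4C.

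**Figure D1:**
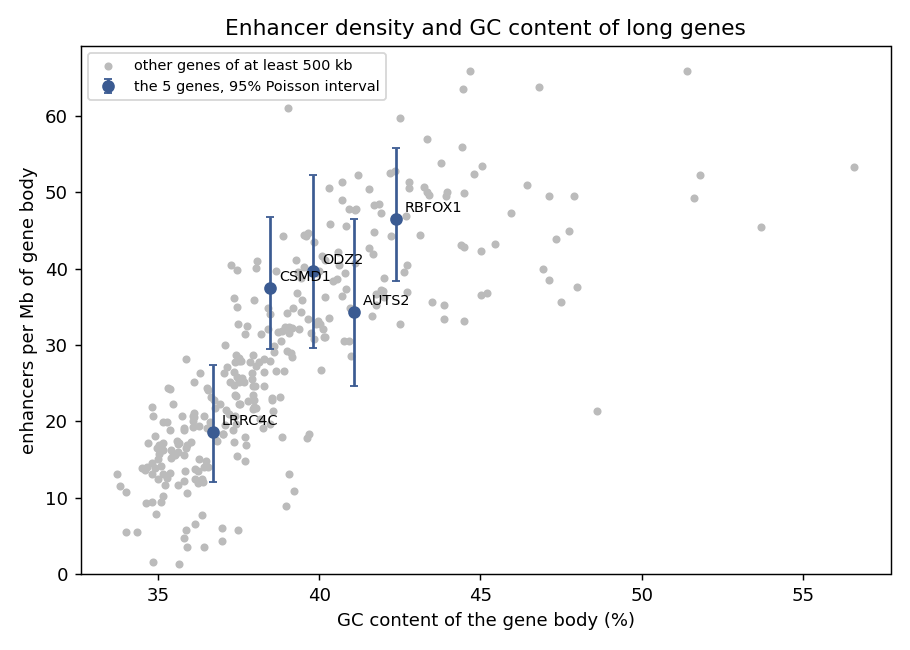
Enhancers per Mb of gene body against the GC content of the body in percent, for 315 protein-coding genes of at least 500 kb. Blue points are the 5 genes with 95% Poisson intervals and grey points the other 310, and the 5 genes lie among the grey points of similar GC content.

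All 309 enhancers inside the 5 gene bodies were closed. Over all enhancers 12.7% were open, a share read only as background because the genes were selected on it. Of the 310 other long genes, 205 also had no open enhancer in their body, and 315 of the 7050 enhancers in all 310 bodies (4.47%) were open. With the 200 kb flanks included, 2 of 390 enhancers were open (0.513%), and both lay upstream of RBFOX1. The enhancer at chr16:5147069-5147570 was 142 kb upstream, at the start of FAM86A, with a fold enrichment of 2.02 from 41 output fragments against 19.8 scaled input fragments and a DNase I score of 0.226. The other, at chr16:5106203-5106682, lay 183 kb upstream with a fold enrichment of 2.52 and a DNase I score of 0.0412.

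The enhancers were almost all intronic. Of the 309 in gene bodies, 304 lay in introns and 5 in exons. Annotated exons covered only between 4.86 kb (LRRC4C) and 14.5 kb (CSMD1) of each body, so almost all of the sequence is intronic as well. The first intron of the longest transcript held 17 of 25 in LRRC4C, 16 of 115 in RBFOX1, 13 of 77 in CSMD1, 12 of 41 in AUTS2 and 3 of 51 in ODZ2. These counts were not set against intron length, so they show no preference for the first intron. In every gene the enhancers were spread along the body. RBFOX1 had between 1 and 10 in each of its 24 full stretches of 100 kb, with a median of 4.5, and its median spacing was 17.2 kb. In LRRC4C the median spacing was 34.9 kb, and the longest stretch without an enhancer was 161 kb, from 1112 to 1273 kb after its start. The densest 100 kb window held 14 enhancers and lay downstream of AUTS2, from 1268 to 1368 kb after its start, against 11 at RBFOX1, from -59.6 to 40.5 kb around its start. The corresponding windows held 10 enhancers at ODZ2 (732 to 832 kb), 10 at CSMD1 (1251 to 1351 kb) and 5 at LRRC4C (752 to 852 kb).

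**Figure D2:**
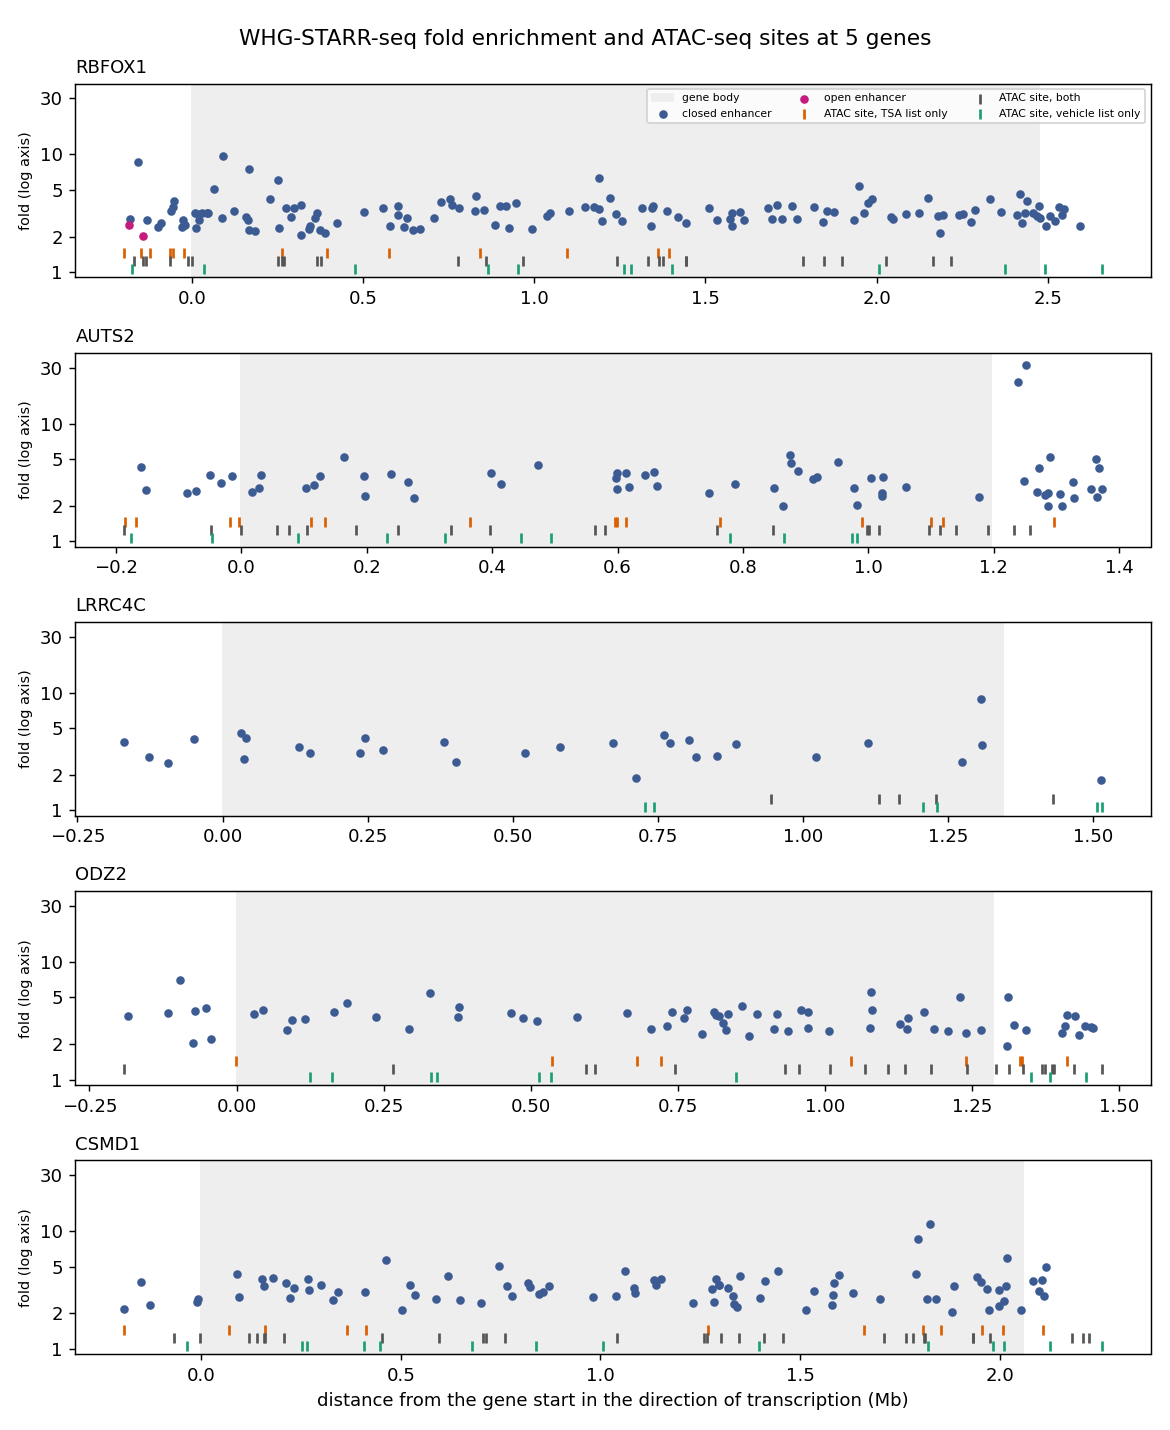
Fold enrichment of each enhancer (log axis) against distance from the gene start in Mb, with ATAC-seq sites as ticks below and the gene body shaded; each panel has its own horizontal range. The enhancers run through all 5 bodies, the 2 open ones lie upstream of RBFOX1, and the 2 with more than 20-fold enrichment lie downstream of AUTS2.

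The fold enrichments, from the same contrast the genes were selected on, are descriptions. The median fold enrichment was 3.17 over the 390, against 3.08 over all enhancers, and 24 of 390 (6.15%) reached 5-fold, against 7.19% of all. At the summit the median was 42 output fragments against 12.4 scaled input fragments for the 390, and 47 against 14.4 for all enhancers. In gene bodies the median fold was 3.48 in LRRC4C, 3.41 in ODZ2, 3.22 in CSMD1, 3.17 in AUTS2 and 3.16 in RBFOX1. These medians were not compared by a test. Single enhancers in the RBFOX1 body had quartiles of 2.77 and 3.55.

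The strongest elements lay just beyond AUTS2. Enhancer 1 at chr7:70313145-70315161, 1251 kb after the start and downstream of the last exon, reached 31.8-fold from 303 output fragments against 8.56 scaled input fragments (28.3 to 35.6). Enhancer 2 at chr7:70300996-70302328 reached 22.4-fold from 431 against 18.3 fragments (20.3 to 24.6). Inside the AUTS2 body the highest was 5.42-fold (4.21 to 6.86), in intron 5. These fold intervals cover the output count alone and take the input as given, so the error of the ratio is larger. The summits of the 2 downstream enhancers were 13.2 kb apart, and the elements were alike in sequence: the best local alignment covered 441 bases of enhancer 1 and 437 of enhancer 2 on the same strand, with 388 identical bases in 442 columns (87.8%). The aligned stretch starts at position 70314679, inside the run printed for enhancer 1. Words of 24 bases around each summit had a median of 1 copy in the genome. The count is of exact words and can miss similar but not identical sequence, so it does not show that the elements are unique.

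The other genes had no element above 12-fold. CSMD1 reached 11.6-fold in intron 37 (chr8:3026931-3027774, 130 against 10.3 fragments), 8.62-fold at an annotated exon of the gene and 5.96-fold in intron 55. These 3 lay near the end of the gene, and the nearest gene start was that of MYOM2. The exon enhancer (80 output fragments) and the one in intron 55 (55 output fragments) each had 8.40 scaled input fragments. RBFOX1 reached 9.76-fold in intron 1 (chr16:5381057-5381739, 154 against 14.9 fragments), 8.70-fold 157 kb upstream and 7.51-fold in intron 1. LRRC4C reached 8.88-fold in intron 3 (222 against 24.1 fragments), and its next were 4.58-fold and 4.36-fold, each also against 8.40 fragments. ODZ2 reached 7.02-fold 95.6 kb upstream (65 against 8.40 fragments, the lowest input level in the lists), 5.54-fold in intron 8 and 5.42-fold in intron 3. That lowest level is a common background value and not a count at the summit. It was the input value of 52 of the 390 enhancers (13.3%), against 14.3% of all. Sequence of 10 or more copies held 27 of the 390 summits (6.92%, 4.61 to 9.91%), against 8.94% of all and 10.2% of all closed enhancers, and 14 of the 27 were at RBFOX1.

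ATAC-seq marks accessible chromatin in the cells themselves. AUTS2 had the most sites for its length, with 38 in its body (31.8 per Mb), followed by CSMD1 with 46 (22.3 per Mb), ODZ2 with 24 (18.7 per Mb), RBFOX1 with 36 (14.6 per Mb) and LRRC4C with 8 (5.95 per Mb). The genome had 18.2 sites per Mb. This order differed from that of enhancer density, in which RBFOX1 was first. Within 200 kb of the genes, 49 of 208 sites (23.6%, 18.0 to 29.9%) overlapped a peak of the TSA list only, against 25.9% of all sites. A further 53 (25.5%, 19.7 to 32.0%) overlapped a peak of the vehicle list only, against 21.6% of all sites, and 106 overlapped both lists. Both shares at the 5 genes had intervals that held the share over all sites. The lowest listed score was 0.0377 in the TSA list (40995 peaks) and 0.0390 in the vehicle list (38813 peaks). Within 200 kb of the genes, the median score was 0.0460 for sites of the TSA list only and 0.0471 for sites of the vehicle list only. A site absent from a list may lie just below its lowest score, so absence does not show that the site was closed in that condition. In its gene body, LRRC4C had 4 sites in both lists, 4 in the vehicle list only and none in the TSA list only.

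**Figure D3:**
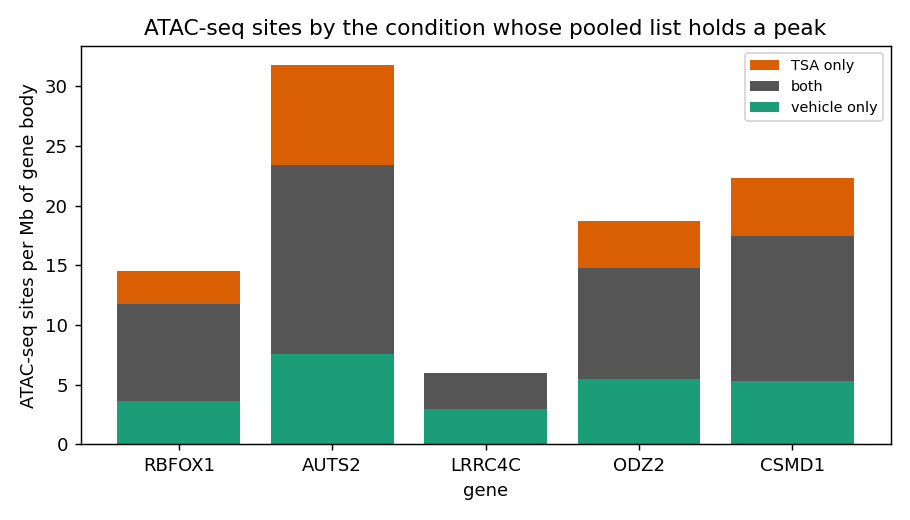
ATAC-seq sites per Mb of gene body, stacked by whether the site overlaps a peak of the pooled TSA list only, of both lists or of the pooled vehicle list only. AUTS2 has the tallest bar at 31.8 per Mb and LRRC4C the lowest at 5.95 per Mb, with no site of the TSA list only. Absence from a list does not show that a site was closed, since each list ends at a lowest score.

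Sites at the gene starts differed among the 5 genes. The site at the RBFOX1 start (chr16:5288034-5291096) had an Fseq score of 0.258 in TSA-treated cells and 0.183 in vehicle-treated cells. The site at the AUTS2 start (chr7:69061095-69065531) scored 0.184 in TSA-treated cells and 0.157 in vehicle-treated cells. The ODZ2 start lay under a peak of the TSA list only (chr5:166405132-166406545, score 0.0455), close to the lowest TSA score listed, 0.0377. Its absence from the vehicle list, whose lowest score was 0.0390, does not show that it was closed with vehicle. For CSMD1 a site 2.38 kb upstream scored 0.0665 in TSA-treated cells and 0.0458 in vehicle-treated cells. No site lay at the outermost start of LRRC4C. Starts here are the outermost of each gene model, and those of shorter transcripts were not examined for sites. In LRRC4C, a site at an exon 1166 kb after the start scored 0.0910 with TSA and 0.0535 with vehicle. In AUTS2, one at an exon 1096 kb after the start scored 0.168 with TSA and 0.134 with vehicle. Scores are of pooled libraries and have no error.

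The 200 bases before 4 of these starts are printed on the strand of each gene to show how they differ in composition, with matches to the SP1 motif GGGCGG in capitals.
RBFOX1, chr16:5289603-5289802: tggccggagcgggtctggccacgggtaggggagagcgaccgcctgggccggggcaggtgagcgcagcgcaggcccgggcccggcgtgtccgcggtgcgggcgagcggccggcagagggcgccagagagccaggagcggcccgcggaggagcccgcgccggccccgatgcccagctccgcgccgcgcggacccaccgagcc
AUTS2, chr7:69063082-69063281: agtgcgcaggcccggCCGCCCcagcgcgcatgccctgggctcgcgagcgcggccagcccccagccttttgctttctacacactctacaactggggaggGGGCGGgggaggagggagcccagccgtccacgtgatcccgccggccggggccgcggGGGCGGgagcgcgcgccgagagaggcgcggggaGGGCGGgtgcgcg
ODZ2, chr5:166405834-166406033: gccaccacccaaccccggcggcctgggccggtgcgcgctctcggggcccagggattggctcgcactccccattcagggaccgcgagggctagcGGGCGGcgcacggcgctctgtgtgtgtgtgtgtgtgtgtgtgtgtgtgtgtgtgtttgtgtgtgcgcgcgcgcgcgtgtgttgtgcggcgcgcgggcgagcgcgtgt
LRRC4C, chr11:41481324-41481523, minus strand: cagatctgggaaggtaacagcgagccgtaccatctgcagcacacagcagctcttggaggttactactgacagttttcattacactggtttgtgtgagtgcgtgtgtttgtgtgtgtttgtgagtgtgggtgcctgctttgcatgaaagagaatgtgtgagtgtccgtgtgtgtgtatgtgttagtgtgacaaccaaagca
The GC content was 82.0% at RBFOX1, 78.0% at AUTS2, 71.5% at ODZ2 and 48.0% at LRRC4C. AUTS2 had 4 SP1 matches, ODZ2 had 1, and RBFOX1 and LRRC4C had none.

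Few of the enhancers coincided with accessible sites in either condition. Of the 388 closed enhancers, 10 overlapped a peak of TSA-treated cells (2.58%, 1.24 to 4.69%), against 2.65% of all closed enhancers. With vehicle, 8 overlapped a peak (2.06%, 0.894 to 4.02%), against 1.68% of all closed enhancers. There were 6 under a TSA peak alone, 4 under a vehicle peak alone and 4 under both. Here too, alone means only that the other list held no peak there. Conversely, 16 of the 208 sites (7.69%, 4.46 to 12.2%) overlapped an enhancer, against 14.8% of all sites. That background includes sites at open enhancers, so a lower share at the 5 genes follows in part from their selection and was not tested. Of all open enhancers, which the 5 genes were selected to lack, 42.4% lay under a TSA peak and 37.8% under a vehicle peak. The enhancer with the highest TSA score was in intron 6 of RBFOX1 (chr16:6732381-6732860, 2.60-fold), with 0.187 in TSA-treated cells and 0.0734 in vehicle-treated cells. An RBFOX1 enhancer in intron 3 (chr16:5654348-5654872, 3.15-fold) had 0.0862 in TSA-treated cells and 0.0724 in vehicle-treated cells. In CSMD1, an enhancer in intron 5 (chr8:3812303-3812802, 2.81-fold) had 0.0789 in TSA-treated cells and 0.0404 in vehicle-treated cells, and one in intron 8 (2.69-fold) lay under a vehicle peak alone, with 0.0736. The enhancers under a TSA peak alone were 3 of AUTS2, 2 of ODZ2 and 1 of CSMD1, with scores between 0.0381 and 0.0657, and 2 of these 6, at AUTS2 and CSMD1, lay in repeated sequence. The remaining ones were an AUTS2 enhancer of 3.83-fold in intron 2 under both lists (0.0446 with TSA and 0.0436 with vehicle), an AUTS2 enhancer of 2.03-fold in intron 5 under a vehicle peak alone (0.0431), and 2 further CSMD1 enhancers under a vehicle peak alone, in introns 51 and 54. None of the 3 strongest enhancers of any gene lay under a peak.

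Motifs were searched on both strands within 150 bases of the summits, and shares are given for the 390 enhancers and then for all. The AP-1 motif TGANTCA was in 11.03% of the 390 and 11.6% of all, the ETS motif GGAAGT in 16.2% and 18.5%, the FOXA motif TGTTTAC in 3.59% and 4.71%, and the GATA motif AGATAAG in 4.87% and 3.63%. The E-box CAGCTG was in 14.9% and 17.8%, the TEAD motif GGAATG in 17.9% and 16.6%, and the androgen response hexamer AGAACA in 24.4% and 21.3%. For each of these motifs the exact interval of the 390 held the share of all, which was not so for SP1 and MEF2. The SP1 motif was in 4.62% (2.76 to 7.20%), below 8.03% of all enhancers but close to 5.22% of all closed ones. The MEF2 motif was in 6 of 390 (1.54%, 0.567 to 3.32%), against 0.546% of all and 0.577% of all closed ones. Its interval held the share of all closed enhancers. The NRSE, the element bound by the neuronal repressor REST, was in 0 of 390 (exact binomial upper limit 0.941%) and in 0.00423% of all. The word TGCATG, which RBFOX proteins bind in RNA, was on the sense strand of 43 of the 304 intronic enhancers (14.1%, 10.4 to 18.6%), against 10.0% of all enhancers on the plus strand. That background also holds open enhancers and ones outside introns, so it is not a like set, and the difference was not tested. A match is a description of the letters, not a bound site.

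The 5 genes ranged widely in mRNA level. The values are the authors' averages over the libraries of their comparison of TSA with vehicle, and whether untreated libraries entered them is not given. They were 7.65 log2 CPM for CSMD1, above 95.8% of the 22336 genes, 5.31 for AUTS2 (73.9%) and 3.52 for ODZ2 (54.5%). LRRC4C had 0.63 (36.97%) and RBFOX1 -2.62, the lowest value in the table, which 2019 genes shared. Per kb of annotated exon the order was the same, with averages of 3.80 log2 CPM for CSMD1, 1.56 for AUTS2, 0.065 for ODZ2, -1.66 for LRRC4C and -6.04 for RBFOX1. Because RBFOX1 was at the lowest value, its figure per kb only reflects its exon length and is not a measured level. No spread is available to say which neighbours in this order differ. RBFOX1, with the most enhancers, thus had the lowest average, and CSMD1, with the next most, had the highest. The averages include TSA-treated cells, whereas the enhancers were measured without TSA, so the mRNA level in cells without TSA is not known from them. Fewer cells with a transcript and less RNA per cell cannot be told apart in bulk RNA, and reads of overlapping antisense genes may be included, since strand use in counting is not given in the sources used here.

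Among paralogs, per kb of exon, RBFOX2, a splicing regulator of many tissues, averaged 3.58 log2 CPM and RBFOX3 -2.18. Both were above RBFOX1, whose own value per kb is not a measured level. FBRS and FBRSL1, relatives of AUTS2, averaged 3.73 and 2.76, above AUTS2. LRRC4 averaged 1.23, above LRRC4C, and LRRC4B -2.22, below it. The teneurins ODZ1 and ODZ4 averaged -0.71 and -3.06, below ODZ2, and ODZ3 was named in the table but not placed here. CSMD2 and CSMD3 averaged -5.64 and -4.92, below CSMD1. Among known partners, the latrophilin LPHN1 averaged 4.61 per kb, LPHN2 -1.47 and LPHN3 -4.75, and NTNG1, which encodes netrin-G1, a protein that binds LRRC4C, averaged -2.04.

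**Figure D4:**
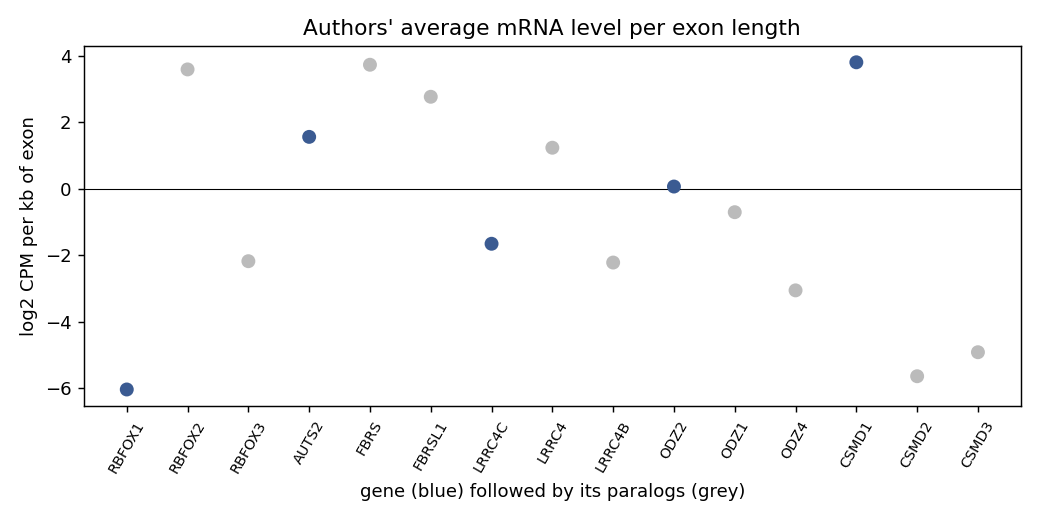
Authors' average mRNA level in log2 CPM per kb of exon for the 5 genes (blue), each followed by its paralogs (grey). CSMD1 is highest among the 5 at 3.80 and RBFOX1 lowest at -6.04, and no error bars are drawn because the values are averages with no library values. The RBFOX1 point is the lowest average of all genes scaled by exon length, not a measured level.

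Paralogs also differed in enhancer density and chromatin. CSMD3, 1.21 Mb long, had 16 enhancers (13.2 per Mb) and CSMD2 had 24 (36.8 per Mb, 1 open). ODZ4 had 50 (63.4 per Mb, 3 open) and ODZ1 5 (6.04 per Mb, none open). RBFOX3 had 11, of which 9 were open, and RBFOX2 had 9, of which 1 was open. In the 15 other long neuronal genes examined, 3 of 538 enhancers were open, 2 in DAB1 and 1 in NTM, and the density ranged from 9.48 per Mb in LRP1B to 50.7 per Mb in NTM, with a median of 20.9. CNTNAP2 had 25.2 per Mb, NRXN3 35.9 and DSCAM 47.8. Their averages lay between -2.47 log2 CPM in OPCML and 2.85 in CNTNAP2, with 8 of 15 below 0.

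Genes that start within 200 kb of the 5 genes and have an ATAC-seq site at their start were ALG1, C16orf89 and FAM86A at RBFOX1 and WWC1 at ODZ2. The sites at ALG1, FAM86A and WWC1 overlapped both lists, and that at C16orf89 the vehicle list only.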

How the data were processed

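Enhancers were called by the authors with MACS2 on pooled output against input after Bowtie and Picard on hg19, and the deposited lists give a fold ratio, −log10 p and −log10 q. ATAC-seq peaks carry the authors' Fseq score per pooled condition, made with cutadapt, Bowtie, Bowtie2 and Picard. The deposited site and gene tables give the authors' log2 CPM averages. Their log2 fold changes, likelihood ratios, p-values and q-values come from the authors' edgeR comparison of TSA with vehicle and were not used. No source used here gives tool versions, and depth per library is unknown.

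Gene models came from GENCODE on GRCh37, whose chromosomes carry hg19 coordinates, and 20848 of 22336 gene names matched. Output and scaled input fragments were recovered from fold and p (largest deviation from a whole number 0.041), a step tested on simulated data. Overlap meant 1 shared base. Regions were placed by their centres, and repeated sequence had a median of at least 10 genome copies of 24-base words. Intervals are 95%, Poisson or exact binomial, and those of a fold enrichment cover the output count alone. Values were computed in pandas 2.3.3, scipy 1.17.1, pysam 0.24.0 and numpy 2.4.6 under Python 3.11.15, and plotted with matplotlib 3.10.9. The genes, the lists (paralogs, partners, other long neuronal genes, cell type markers, motifs) and the rule for naming (those genes, the 3 strongest enhancers per gene, open enhancers and enhancers under a peak) were chosen with earlier results of these data known. Some listed items are not reported here. Alternatives are given in the closing section.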

Additional observations from a re-analysis of the deposited data

How the results depend on the processing

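No paired analysis was possible because the files hold no value per library, and for the same reason no replicate could be left out. Over the 5 genes with 200 kb flanks there were 37.6 enhancers per Mb, and 31.9 and 13.7 per Mb at q-values under 1e-05 and 1e-10. The median fold of 3.17 was 3.36 and 3.81 at these limits, which remove weaker enhancers by construction. The closed share of 99.5% was 100% with 50 kb flanks, in the gene bodies alone and at a q-value under 1e-10, and 97.4% where closed also meant no vehicle ATAC-seq peak. The other 21 of 29 alternatives for the pooled values stayed within the counting interval. For single genes and motifs, 56 of 75 alternatives did, and those that moved searched whole enhancers, used a stricter q-value or ranked expression among the 14806 genes of at least 0 log2 CPM. An RBFOX1 model without transcripts that start in its first 0.7 Mb, chosen after seeing the data, gave 43.5 per Mb against 47.7.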
